A study of Drosophila melanogaster with 8 samples.

Results

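The compact dFOXO regions are narrow regions of the genome listed for flies with ablated insulin producing cells (IPCs). There, chromatin precipitated with a dFOXO antibody gave more sequence tags than input chromatin, after the input count was scaled for each chromosome arm. The compact regions were chosen by their measured width alone, as every distinct region under 6000 bp in the list of the IPC-ablated flies. They numbered 348 of the 763 regions of that list. The other 415 regions, of 6000 bp or more, are called broad here. The width, the tags and the position came from the same comparison of ChIP with input, so the IPC values below are a description. Binomial p-values on IPC tags are given only as a rough measure of counting precision. The tests between compact and broad regions concern what the chico list holds at or for them.

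The series held 8 libraries from whole adult females at the age of 15 days, with 2 ChIP libraries and 2 input libraries for each of the 2 genotypes. In the IPC ablation genotype Dilp2-GS-Gal4, a driver of the insulin producing neurons that is switched on by RU486 in the food, expressed the cell death gene reaper from UAS-rpr, so the cells were lost in adults and only in part. In the other genotype the flies were heterozygous for chico1, a mutation of the insulin receptor substrate, in a background of y1, cn1 and ry506. Each ChIP sample was made from a pool of females, the reads of the replicates were merged by the authors into a single value per region, and no error between replicates can be given for any value. Neither wild type flies nor a control of the IPC genotype without ablation was among the libraries analysed here, so each enrichment is a ratio of ChIP to input within a genotype and not a change caused by the ablation. The ablation, the RU486 feeding and the transgenes cannot be told apart in these libraries.

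dFOXO is the fly forkhead box O transcription factor. When insulin-like peptides act on their receptor, the kinase Akt phosphorylates FOXO and keeps it in the cytoplasm, and when insulin signaling falls FOXO enters the nucleus and binds DNA near the genes it controls. The IPCs are a small group of neurosecretory cells in the brain that release insulin-like peptides into the blood, and flies that lose them live long, resist starvation and store more lipid and carbohydrate. In whole flies the chromatin of fat body, muscle, gut, ovary and nervous system is mixed, and a site bound in a few cells is diluted by the others.

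The compact regions were between 1295 and 5960 bp wide, with a median of 3226 bp, and together they covered 1.18 Mb. They held between 523 and 2254 ChIP tags, with a median of 980, against 500 to 2190 scaled input tags with a median of 947. The scaled input is the input tag count multiplied by a factor for each chromosome arm, and enrichment is ChIP tags divided by it. Enrichment was low throughout, with a median of 1.03, quartiles of 1.01 and 1.05, and a range from 1.00 to 1.28. In total the compact regions held 364813 ChIP tags and 353494 scaled input tags, a ratio of 1.03.

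The count of compact regions became small at higher ratios of ChIP to input. An enrichment of at least 1.02 was seen in 201 compact regions (57.8%), one of at least 1.05 in 78 (22.4%) beside 16.1% of all listed regions, one of at least 1.1 in 13 and one of at least 1.2 in 2. In the broad regions the median enrichment was 1.02 and the highest 1.12, while 45 (10.8%) reached 1.05. Tag density was close at the median, with 307 ChIP tags per kb in compact regions and 296 in broad regions, and it reached 782 in compact and 392 in broad regions. The upper tails of enrichment and of density were thus both longer in the compact regions, which hold fewer tags each. The density of 782 was that of the Pka-R1 region, described below. The height that the list gives, a signal of unstated definition, went the other way, with a highest value of 673 in compact and 1903 in broad regions.

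In an exact one-sided binomial comparison of ChIP with scaled input, adjusted by Benjamini-Hochberg over all 763 regions, 2 compact regions were at or under an adjusted p of 0.01, against 0.655% of all listed regions. At an unadjusted p under 0.05 they were 34 (9.77%), beside 14.8% of all listed regions. Nothing is read from these counts, since the regions were listed for having more ChIP than scaled input. They give the precision that the tags allow: at the median of 1937 ChIP and scaled input tags together, 1.08 was the lowest enrichment with an unadjusted p under 0.05. The 2 regions were those of CR32028 and oc.

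**Figure D1:**
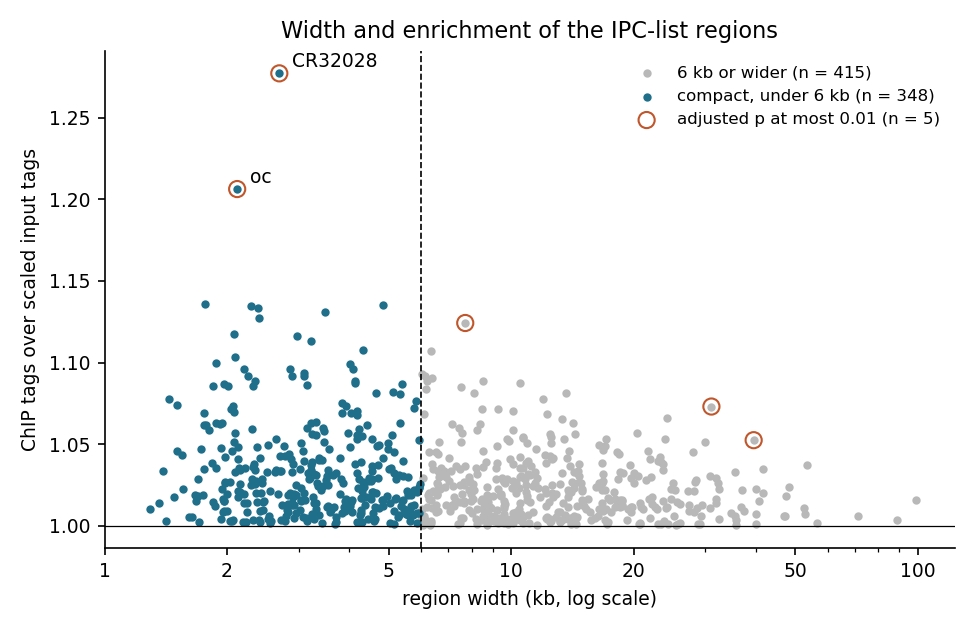
Width in kb (log axis) and ChIP tags over scaled input tags for the 763 regions of the IPC list, with the 348 compact regions left of the dashed line at 6 kb. The compact regions CR32028 (1.28) and oc (1.21) stand above all others, 5 regions in all are at or under an adjusted p of 0.01 (rings), and most regions of either class lie below 1.05.

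The highest enrichment of any region was on 3L, at 8433264 to 8435952 in the coordinates of the list, whose genome build is not given in the sources used here. This region had 929 ChIP tags against 728 scaled input tags, an enrichment of 1.28 with a 95% exact binomial interval of 1.16 to 1.41. The position that the list gives within the region lay 13 bp inside the 5' end of CR32028, a name that the RefSeq gene table of fly genome Release 6 gives as a synonym of Unr. Unr encodes an RNA-binding protein that takes part in the translational control behind dosage compensation. The same region was also listed for Unr itself, for Gug, which encodes the corepressor Atrophin, and for CG6983. No chico region overlapped it, and the nearest chico centre was 12741 bp away.

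Next came a region on X, at 8544241 to 8546358, that covered the 5' end of oc, the homeobox gene orthodenticle that patterns the head and the ocelli. It had 960 ChIP tags and 796 scaled input tags, which gave 1.21 (1.10 to 1.33). The position was 375 bp upstream of the 5' end of oc. This was also the compact region with the third highest density of ChIP tags, at 453 per kb against 376 per kb in scaled input.

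The other 8 of the 10 highest enrichments were between 1.12 and 1.14, and their intervals overlapped one another. Their positions fell either near a 5' end or far from it. At CG18375, now named ASPP and encoding a partner of the Src-inhibiting kinase Csk, the region of 4827 bp held 1536 ChIP tags against 1354, an enrichment of 1.14 (1.05 to 1.22), and its position was 13 bp inside the gene. The position was 177 bp from the 5' end of CG13715 (1.12), a synonym of the neurexin-related gene axo, 301 bp from that of CG17048 (1.13), and 702 bp from that of CG8854 (1.13). At Cpr62Bc, listed with Cpr62Ba and like it a gene for a cuticle protein, there were 828 ChIP tags against 735, which gave 1.13, and the position was 1249 bp from the 5' end.

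The remaining 3 of these regions were far from a 5' end. The region of Ddr, which encodes a receptor tyrosine kinase of the collagen-binding discoidin domain family, had 628 ChIP tags against 553, an enrichment of 1.14 (1.01 to 1.28), and lay 57835 bp into the gene. The region of ome, which encodes a dipeptidyl peptidase, had 768 against 677, an enrichment of 1.13 (1.02 to 1.26), and lay 51074 bp into the gene. The region of CG32062, the splicing regulator gene now named Rbfox1, had 653 against 586, an enrichment of 1.12 (1.00 to 1.25), and lay 5444 bp upstream of the gene. By the binomial test the adjusted p-values of these 3 regions were 0.209, 0.169 and 0.266, above the limit of 0.01. The regions of 1.12 to 1.14 near a 5' end were above it as well, with the lowest, 0.0408, at CG18375. The compact regions at or under that limit, CR32028 and oc, had positions 13 bp inside and 375 bp upstream of a 5' end. Enrichments of 1.12 to 1.14 were thus listed both near 5' ends and far from them. Whether enrichment depends on the distance from a 5' end was not tested.

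**Figure D2:**
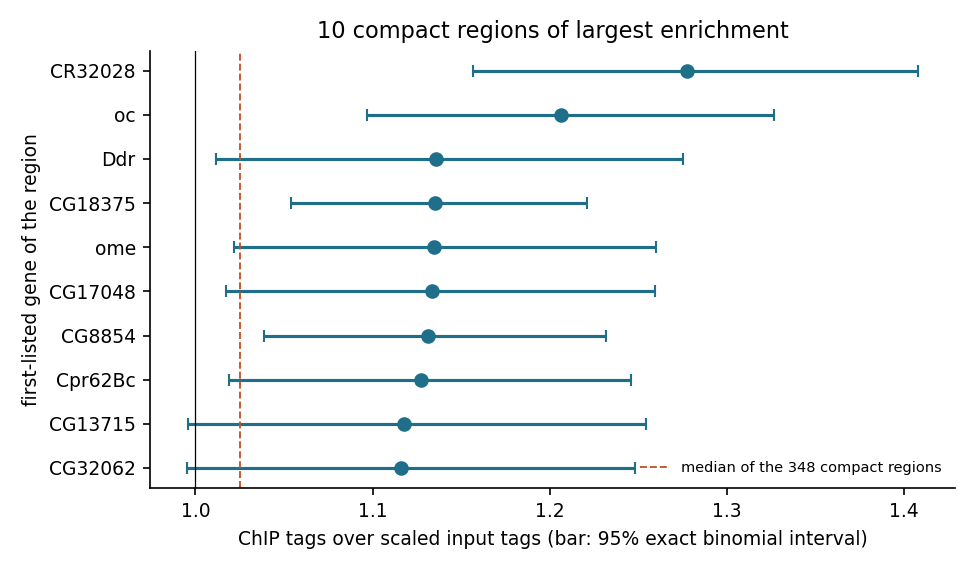
Enrichment (ChIP tags over scaled input tags) of the 10 compact regions with the largest values, with 95% exact binomial intervals that cover counting error only, named by the first-listed gene. The intervals of CR32028 and oc start at 1.16 and 1.10, those of CG13715 and CG32062 reach 1.00, and the dashed line is the median of the 348 compact regions, 1.03.

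Tag density picked out other genes than enrichment did. The densest compact region was that of Pka-R1, which encodes a regulatory subunit of protein kinase A, with 1124 ChIP tags and 1044 scaled input tags in 1437 bp. That is 782 ChIP tags per kb, against a median of 307 over compact regions, and its scaled input was as far above the others, at 727 per kb. Behind it came sqz, a zinc finger gene of neuropeptidergic neurons, with 465 ChIP tags per kb and 434 in scaled input, and then oc. The other 7 of the 10 densest had between 418 and 442 ChIP tags per kb, at CG32511, Tom (an inhibitor of Notch signaling), Blimp-1 (an ecdysone-responsive repressor), CG14762, Tsp42Ea (a tetraspanin), Yp1 (a yolk protein) and CG14425, a synonym of the sex determination gene Sxl. Input was high at each of them, and their enrichments were between 1.00 and 1.04. Of the 10 densest compact regions oc alone had an enrichment over 1.1, and the density of the others was nearly as high in input as in ChIP.

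The narrowest compact region, of 1295 bp, lay 944 bp upstream of CG30098 and had an enrichment of 1.01. Next were Cg25C, now Col4a1, with 1363 bp and 1.01, and Tom with 1394 bp and 1.03. The region of Cg25C is shared with vkg, and these genes, for the collagen IV chains of basement membranes, start at a common promoter: its position was 121 bp upstream of Cg25C. At the other end, the widest regions inside the limit were CG12370 (5960 bp, 1.03), fd64A (5947 bp, 1.02) and CG30411 (5942 bp, 1.02). CG12370 is the diuretic hormone 44 receptor gene Dh44-R2, and fd64A is the forkhead gene FoxL1. Just outside lay CG34400 (6003 bp, 1.01), CG17999 (6019 bp, 1.01) and CG12484 (6026 bp, 1.09). No gap in width separated the classes.

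Each region was listed for 1 or more genes, and the gene of lowest rank in the list is called first-listed here. A single gene was listed for 267 compact regions, 62 had 2 genes, 15 had 3, 3 had 4 and 1 had 5, which made 453 genes in all. Of these, 444 were found in the Release 6 gene table, 434 as protein-coding genes. No gene of a compact region was listed for a broad region as well, since the list names each gene once. By the class that the list assigns, 159 compact regions (45.7%) were inside the first-listed gene on its 5' side, 88 (25.3%) inside on its 3' side, 79 (22.7%) 5' of the gene and 22 (6.32%) 3' of it.

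The location classes depend on width, since a wide region touches or contains a gene more often by its width alone, and width defined the compact regions. The values of compact and broad regions are therefore given side by side, with nothing read from their difference. The class 5' of the gene held 22.7% (18.6 to 27.4, Wilson interval over regions) of compact and 10.4% (7.78 to 13.7) of broad regions, and the class 3' of the gene held 6.32% and 2.89%. The inside classes held 45.7% against 56.6% on the 5' side and 25.3% against 30.1% on the 3' side. How a region covered its gene follows the width in the same way: 164 broad regions (39.5%) contained their first-listed gene whole, against 68 compact regions (19.5%). In turn 109 compact regions (31.3%) lay wholly within a gene, against 67 broad regions (16.1%), and 101 compact regions (29.0%) did not touch the gene at all. Summed over 5' classes, the shares were alike, 68.4% in compact and 67.0% in broad regions.

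The positions of compact regions peaked in the first kb downstream of a 5' end, but most lay farther away. Signed along the strand of the first-listed gene, the distance had a median of 732 bp, with quartiles of -901 and 8381 bp and a range from -9789 to 102839 bp. It was within 100 bp of the 5' end in 11 regions (3.16%), within 500 bp in 66 (19.0%), within 1 kb in 98 (28.2%) and within 5 kb in 205 (58.9%). Up to 1 kb downstream there were 70 regions (20.1%), and up to 1 kb upstream there were 28 (8.05%). The first kb downstream held 18.3% of broad regions and 25.4% of chico regions. Counting any listed gene, 104 compact regions (29.9%, 25.3 to 34.9) had their position within 1 kb of a 5' end, against 141 broad regions (33.98%, 29.6 to 38.7).

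The location classes differed in the length of their genes as well as in distance. The regions on the 5' side of a gene had a median distance of 845 bp, and 56 of these 159 (35.2%) were within 500 bp of the 5' end. Those on the 3' side had a median distance of 3695 bp, those 5' of the gene -4149 bp, and those 3' of the gene 17604 bp. The median length of the first-listed gene was 20519 bp on the 5' side, 3320 bp on the 3' side, 8412 bp for regions 5' of the gene and 12963 bp for regions 3' of it. Over all compact regions it was 11915 bp, against 8327 bp for broad regions and 5354 bp for the regions of the chico list.

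**Figure D3:**
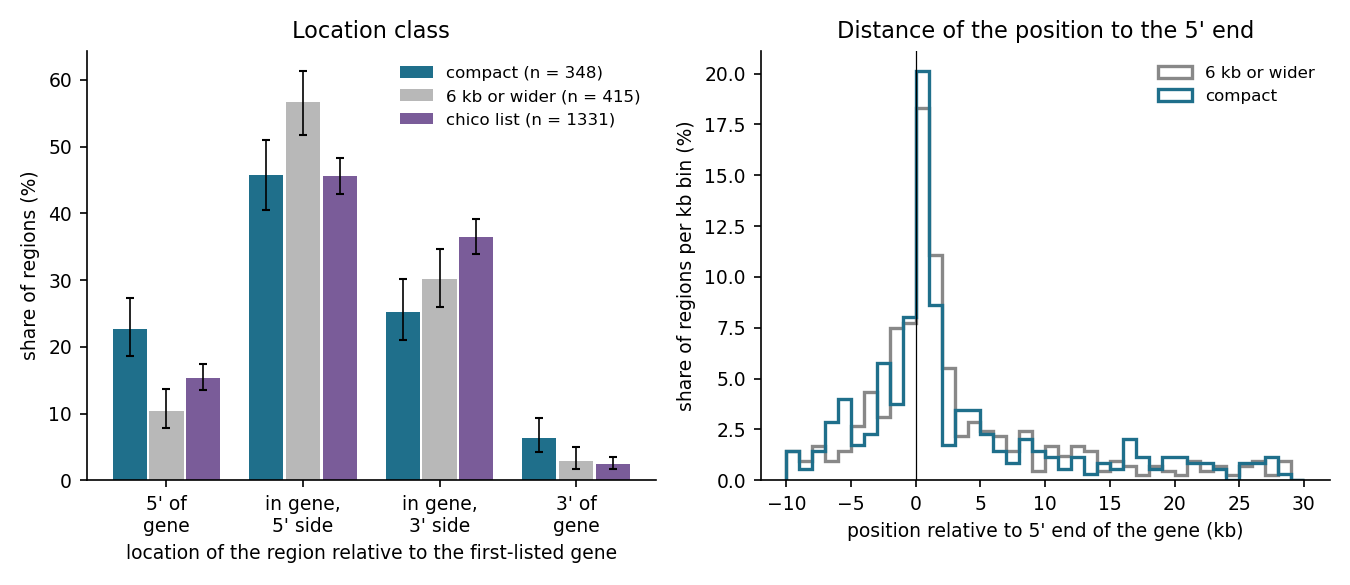
Left, share of regions (%) in each location class with Wilson 95% intervals over regions, for compact regions, broad regions and the chico list. Right, share of regions per 1 kb bin of the distance from the 5' end of the first-listed gene to the position (kb, positive into the gene). Beyond 30 kb, 23 compact and 15 broad regions are not drawn. The compact regions peak in the first kb downstream with 20.1%, beside 18.3% of broad regions there.

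The compact regions were not spread evenly over the chromosome arms. They were 77 of the 139 listed regions of 2L (55.4%), 107 of 324 on 2R (33.0%), 92 of 185 on 3L (49.7%), 18 of 20 on 3R (90.0%) and 53 of 94 on X (56.4%), with 1 on chromosome 4. Arm 2R thus had the most regions and the lowest share of compact ones, and arm 3R had few regions of any width, whereas the chico list had 399 regions on 3R. The factor applied to input was lowest on 2R, 0.678, and highest on 3R, 0.752, with 0.701 to 0.719 on the other 3 arms. Enrichments of 1.05 or more made up 29.9% of compact regions on 2R, 25% on 3L, 22.2% on 3R, 15.1% on X and 13.0% on 2L. The part of the input factor in these counts was not tested.

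Some compact regions lay close to another region of the list. In 57 of them (16.4%) the next listed region was within 1 kb, against 102 broad regions (24.6%), and the smallest gap was 101 bp. The regions of the yolk protein genes Yp2 (1586 ChIP tags against 1484, 1.07) and Yp1 (1220 against 1176, 1.04) were 373 bp apart. Those of Su(z)2 and Psc, neighbouring genes for core subunits of Polycomb repressive complex 1, were 433 bp apart in the interval between these genes, with 776 ChIP tags against 709 (1.10) at Su(z)2 and 875 against 864 (1.01) at Psc. Both were 5' of their gene, at 5520 bp from Su(z)2 and 6642 bp from Psc. Such neighbours share a locus and are not independent sites.

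The gene lists below were written with earlier results of these data known, and for each the count of its genes in compact regions is given beside the same count over all protein-coding genes, which was 426 of 13962 (3.05%). That share rose steeply with gene length: compact regions listed 1.25% of genes under 5 kb, 4.90% of genes of 5 to 20 kb and 17.1% of genes of 20 kb or longer in the Release 6 table. Genes of 20 kb or longer made up 40.8% of the protein-coding genes in compact regions. How far the length of its genes accounts for the count of a list was not tested.

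Insulin signaling and stress genes were not listed for compact regions, at shares too close to the background to read as a result. Of 34 genes of insulin and TOR signaling none was listed for a compact region, 1 was listed for an IPC region of any width and 8 for a chico region. Likewise none of 38 genes of stress kinase signaling, detoxification and autophagy was in a compact region, 2 were in the whole IPC list and 5 in the chico list. The genes of these lists were short, with medians of 4816 bp and 2307 bp, and compact regions listed 1.25% of all genes under 5 kb, so a count of 0 in lists of this size is not told apart from the background.

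Growth factor pathways had a few members each, none of them with an unadjusted p under 0.05. For TGF-beta signaling 3 of 28 genes (10.7%) were in compact regions. The region of daw, an Activin-like ligand, lay 6808 bp upstream of it inside the neighbouring gene Syt1, with 661 ChIP tags against 631, an enrichment of 1.05 (0.938 to 1.17). The region of shn, a zinc finger factor of Dpp signaling, was 6187 bp upstream with 1171 against 1118 (1.05), and that of dally, a glypican, was 10504 bp into the gene with 1641 against 1633 (1.01). For Wnt signaling 3 of 29 genes were found: the Wnt deacylase Notum at 2330 bp upstream (683 against 637, 1.07), and the ligands Wnt10 (1.02) and Wnt4 (1.00). For Notch and EGF receptor signaling 2 of 23 were found, the rhomboid protease gene ru (1.03) and the ligand gene vn (1.02). In each of these 3 pathways the region of 1 or more genes lay wholly upstream of the gene.

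Transcription regulators of patterning gave 14 of 104 genes (13.5%), of which 7 were also in the chico list. After oc, the largest enrichments were at the homeobox gene dve (1323 ChIP tags against 1255, 1.05), the forkhead gene bin (960 against 923, 1.04), the POU gene vvl (1.03), the zinc finger gene drm (1.03) and the homeobox gene B-H2 (1.03). The median over the 14 regions was 1.02, against 1.03 over all compact regions, and oc was the only member with an unadjusted p under 0.05. For Polycomb and trithorax group genes 2 of 21 were found, Su(z)2 and Psc. For the circadian clock and the ecdysone response 4 of 26 were found, with enrichments from 1.02 to 1.03, at pdfr, the receptor of the clock neuropeptide Pdf, at NPFR76F, now sNPF-R, at the clock gene Pdp1 and at the nuclear receptor gene ftz-f1.

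Axon guidance and cell adhesion gave the highest count of the lists. Of its 100 genes 22 were in 21 compact regions, with a median enrichment of 1.02. Compact regions listed 17.1% of all protein-coding genes of 20 kb or longer, and 65% of the genes of this list had that length. The IPC list as a whole held 43 of the 100. By the binomial test 2 of the 21 regions had an unadjusted p under 0.05, those of Ddr and dpr12, beside 9.77% of all compact regions. The region of dpr12, a member of the Dpr family of immunoglobulin proteins of the neuron surface, was 3' of its gene with 1603 ChIP tags against 1475, an enrichment of 1.09 (1.01 to 1.17). It was followed by sli, the ligand of the Robo receptors (1801 against 1712, 1.05), dpr (1.04), klg (1.04) and beat-Ic (1.04). Regions wholly within the gene were the most frequent kind, 11 of 22, and 30 genes of this list were in the chico list, 6 of them among the 22.

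Of 63 genes of neuronal excitability and transmitter receptors 12 (19.0%) were in compact regions, counting ome, which the list holds although it encodes a peptidase. Compact regions listed 17.1% of all protein-coding genes of 20 kb or longer, and 54.0% of the genes of this list had that length. The IPC list as a whole held 20 of the 63 and the chico list 28. The voltage-gated potassium channel gene Shal had 1346 ChIP tags against 1225, an enrichment of 1.10 (1.02 to 1.19), in a region 3' of the gene. The region of qvr, which encodes a regulator of Shaker channels and of sleep, was 9501 bp upstream with 910 against 834 (1.09), and the first-listed gene of that region was CG7777, the aquaporin gene Prip. Shab, another potassium channel gene, had 660 against 607 (1.09), at 2835 bp upstream. The nicotinic receptor gene nAcRalpha-30D followed at 1.06, and the dopamine receptor gene DopR, now Dop1R1, at 1.05.

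RNA-binding regulators had the highest share of these lists, 9 of 31 genes (29.0%), against 10 of 31 in the IPC list as a whole and 8 in the chico list. After CG32062 came aret, now bru1, a translational repressor of the germ line (586 ChIP tags against 534, 1.10), Rbp6 (1426 against 1319, 1.08), bru-3 (1164 against 1085, 1.07), how (668 against 631, 1.06) and mbl, a splicing factor gene (529 against 515, 1.03). The regions of the first 4 were 5' of their gene, by 5444 bp, 9444 bp, 9789 bp and 2458 bp, whereas the position at mbl was 52 bp inside it. Their genes were long, with a median of 110317 bp over the 9, and 64.5% of the genes of the list had 20 kb or more.

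**Figure D4:**
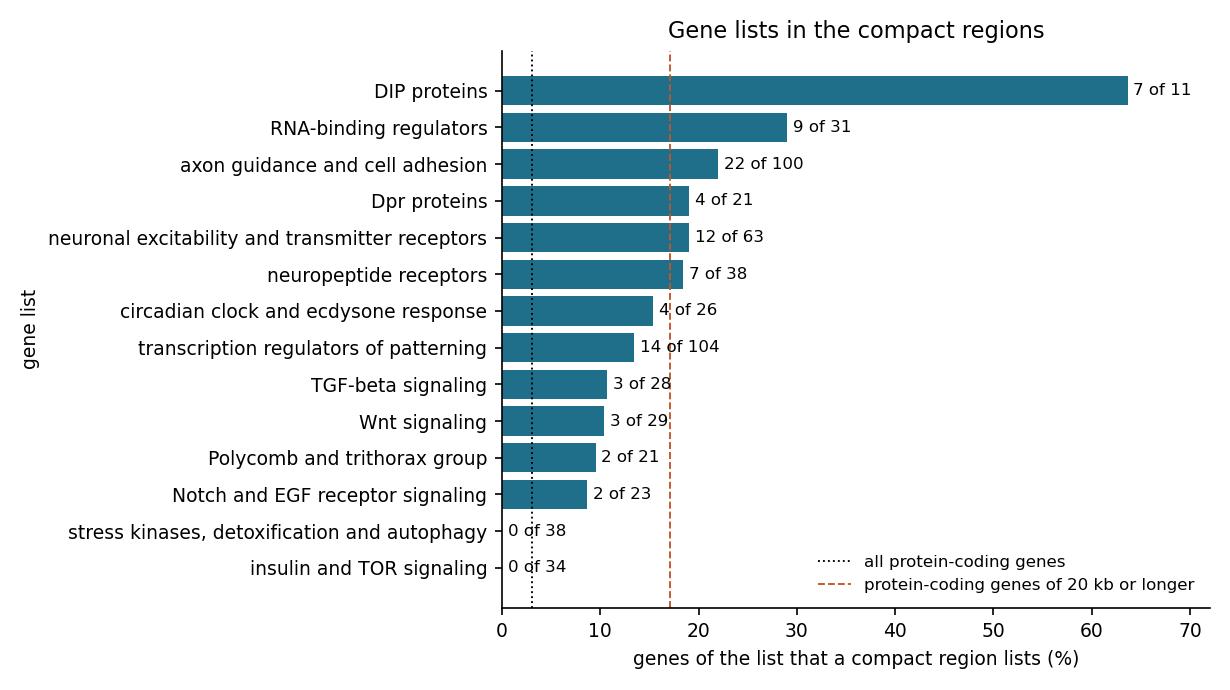
Share of the genes of each list (%) that a compact region lists, with counts at the bars, for 11 lists and for 3 gene families (neuropeptide receptors, Dpr and DIP proteins) added later. The lists of RNA-binding and neuronal genes lie above the 17.1% of protein-coding genes of 20 kb or longer (dashed), insulin and stress genes are at 0, and the dotted line is the 3.05% of all protein-coding genes.

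The chico libraries were not used in choosing the compact regions. The comparison with them describes the overlap with regions listed in another genotype with low insulin signaling. Of the 348 compact regions 11 (3.16%, 1.77 to 5.57) overlapped 1 chico region each, and each of these chico regions lay wholly inside the compact region. Of the broad regions 70 (16.9%) overlapped a chico region, as did 81 (10.6%) of all listed IPC regions. Per Mb covered the overlaps were 9.30 in compact, 10.8 in broad and 10.6 in all listed IPC regions. The overlap expected from placement alone was not computed, so the pairs are not read as recurrence. The first-listed gene was the same in 10 of the 11 pairs. In the chico list, where 6.39% of 1331 regions were at or under an adjusted p of 0.01 and 61.4% had an unadjusted p under 0.05, 1 of the 11 overlapped regions met the adjusted limit and 7 met the unadjusted one. The chico regions too were listed for having more ChIP than scaled input, with a lowest enrichment of 1.07. These p-values therefore describe counting precision and do not show binding.

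The strongest of these pairs in chico was esg, a Snail family gene that maintains stem cells of the gut. The chico region had 485 ChIP tags against 340, an enrichment of 1.43 (1.24 to 1.64) with an adjusted p of 1.45e-05 by the binomial test. In the compact region around it there were 1817 against 1813, an enrichment of 1.00 (0.939 to 1.07), although the position and the chico centre were only 21 bp apart. The chico region was 723 bp wide and the compact region 5629 bp, so the ratios are over different lengths.

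At oc, the only compact region of these pairs above the lowest chico enrichment of 1.07, the order was the other way round. The compact region had 1.21 (1.10 to 1.33) and the chico region, 1119 bp wide, had 585 ChIP tags against 525, an enrichment of 1.12 (0.989 to 1.26) with an adjusted p of 0.0724. The position and the chico centre were 8 bp apart, the smallest distance of any pair. Among compact regions oc alone reached the adjusted limit in the IPC list and overlapped a chico region.

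The next 3 enrichments in chico were at CG8170 (580 ChIP tags against 488, 1.19, adjusted p = 0.0222), CG12866 (586 against 500, 1.17, adjusted p = 0.0293) and lox2, a lysyl oxidase gene (770 against 682, 1.13, adjusted p = 0.0424), by the same binomial test. In the compact regions of these genes the enrichments were 1.05, 1.05 and 1.01. The other 6 pairs had chico enrichments from 1.08 to 1.11 and IPC enrichments from 1.00 to 1.03, at CG13331, CG30389, CG16970, GRHRII, CG14418 and CG34334. GRHRII, now CrzR, the corazonin receptor gene, was paired with a chico region first listed for its neighbour CG32105. In 10 of the 11 pairs the chico value was the higher one, and nothing is read from this. No chico region was listed below 1.07, whereas the compact regions of these 10 pairs had 1.00 to 1.05, so the order was fixed by the lists. The widths differ as well.

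**Figure D5:**
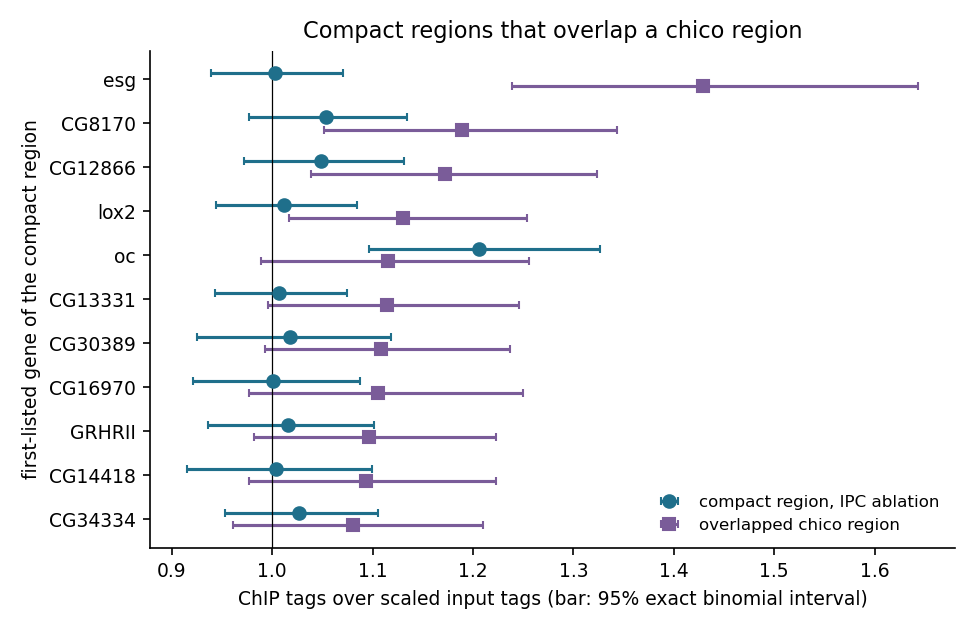
Enrichment (ChIP tags over scaled input tags) of the 11 compact regions that overlap a chico region and of the chico region within each, with 95% exact binomial intervals that cover counting error only. At esg the chico value is 1.43 and the IPC value 1.00, and only at oc is the IPC value (1.21) above the chico value (1.12). No chico region was listed below 1.07.

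A single point per region was also compared between the classes: whether the position lay within 500 bp of the centre of a chico region. A point does not remove width, since the position can be that near only where the region holds or adjoins a chico region. Of compact regions 3.16% overlapped a chico region, against 16.9% of broad regions. The position lay within 500 bp for 7 of 348 compact regions (2.01%, 0.978 to 4.09) and for 34 of 415 broad regions (8.19%, 5.92 to 11.2). By Fisher's exact test over regions the difference had a two-sided p = 0.000144 (adjusted p = 0.000288 over 2 tests). That test counts regions as independent units, which close neighbours are not. How the position was set within a region is not stated. The part of width in the difference was not tested, so no conclusion is drawn from it. The 7 compact regions were those of oc, esg, CG14418, CG16970, CG34334, GRHRII and CG30389. With the midpoint of each region in place of the position the difference was 0.778 percentage points (p = 0.561), so it rests on the deposited position, and without arm 2R it was 4.58 points (adjusted p = 0.0719 by the exact test). By arm the counts were 2 of 77 compact against 2 of 62 broad regions on 2L, 1 of 107 against 20 of 217 on 2R, 1 of 92 against 8 of 93 on 3L and 3 of 53 against 4 of 41 on X, and 3R had none in either class.

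At the level of genes the classes were not told apart. The first-listed gene was also in the chico list for 90 compact regions (25.9%, 21.5 to 30.7) and for 112 broad regions (26.99%, 22.9 to 31.5), a difference of 1.13 points (Fisher's exact test, two-sided p = 0.742). Of all 453 genes of the compact regions, 111 (24.5%) were in the chico list, beside 25.4% of the genes of broad regions and 25% of all genes of the IPC list. The share of all fly genes that the chico list holds was not computed, so nothing is read from this count. A gene is listed for regions within it or at some distance from it, so a gene can be shared where no region is. Most shared genes had their compact region and their chico region at different places.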

How the data were processed

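dFOXO ChIP and input libraries of 2 replicates per genotype were pooled as raw reads by the authors, aligned with Bowtie (the submitters' processing notes also name CASAVA 1.6) and passed to PeakSeq at a false discovery rate of 0.01. The genome build is not given in the sources used here. The authors deposited 1 list per genotype, with a row for each region and gene. It holds the ChIP tag count of each region, a score that is the input tag count multiplied by a factor per chromosome arm and rounded up, the ratio of ChIP tags to it (enrichment), a height (a signal whose definition in the IPC list is not stated) and p-values, which the authors list as 0 throughout the IPC list and which were not used. The read totals of the libraries were not analysed here, so depth is given as tags per region.

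Rows were reduced to 1 per distinct region, keeping the gene of lowest rank, and compact regions were those under 6000 bp. ChIP tags were compared with scaled input by an exact one-sided binomial test of equal shares, Benjamini-Hochberg adjusted over all regions of a list, with a limit of 0.01, in Python 3.11.15 with SciPy 1.17.1, NumPy 2.4.6 and pandas 2.3.3. Figures were drawn with Matplotlib 3.10.9. The procedure was tested on simulated data. There the adjusted limit found 7% of regions planted at an enrichment of 1.1, 77% at 1.2 and 100% at 1.5, with 0 other regions called. The simulated tags followed the equal shares that the test assumes, without selection for more ChIP than scaled input or error in scaling. The simulation therefore cannot show how often the test errs on the deposited list. Intervals of enrichment are 95% Clopper-Pearson intervals of the ChIP share turned into a ratio, and those of shares of regions are Wilson intervals. Both cover counting error only, and reads without molecular identifiers are not independent molecules. The binomial test and the intervals of enrichment treat scaled input as if it had been counted. In the IPC list the input counts were multiplied by factors from 0.678 on 2R to 0.752 on 3R, so these p-values and intervals are approximate. Compact and broad regions were compared on chico measures by 2 two-sided Fisher's exact tests. Distances run along the strand from the 5' end of the gene to the deposited position. Current gene names and lengths came from the RefSeq table of Release 6, by symbol, identifier or synonym, and none of its coordinates was used.

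The members and the 11 gene lists were chosen with earlier results of these data known. The text names the 10 compact regions of largest enrichment, those at the adjusted limit, the 10 of highest ChIP tags per kb, the 3 narrowest, the 3 on each side of the width limit, those near a chico centre, the overlapped chico regions with the 5 largest enrichments, and up to 6 of each list by enrichment. The other pairs and the neighbouring regions named were chosen after their values were seen. Alternatives changed the width limit, input scaling, threshold, position, gene choice, distance and overlap.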

Additional observations from a re-analysis of the deposited data

How the results depend on the processing

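No paired analysis was possible because the deposited lists used here hold 1 value per region, from merged replicates, and for the same reason no replicate could be left out. The count of compact regions at or under an adjusted p of 0.01 depended on the scaling of input: it was 2 as deposited, 41 with input lowered by 5%, 0 with input raised by 5%, and 34 at an unadjusted p under 0.05. With the input counts before scaling it was again 2. The share of compact regions within 1 kb of a 5' end was 29.9%, and it became 23.3% with the midpoint and 60.9% at 5 kb. The share on the 5' side of or 5' of a gene was 68.4%, and 74.1% with any listed gene. Of the 11 overlaps 1 was left with chico regions of an enrichment of at least 1.2, and of the overlapped chico regions 1 met the adjusted limit and 7 an unadjusted p under 0.05. The difference in nearness to a chico centre was -6.18 percentage points (compact minus broad), -0.778 with midpoints (p = 0.561, Fisher's exact test) and -4.58 without arm 2R (adjusted p = 0.0719, exact). With 250 bp, 1 kb or a width limit of 5000 bp it was -5.07, -6.62 and -5.51, past the threshold each time. The comparison of listed genes kept its side of the threshold under its 3 alternatives. The unadjusted chico count and the fit without arm 2R were chosen after seeing the data. The search of promoters for a FOXO element was not run. At the median tag total of the compact regions the lowest enrichment with an unadjusted p under 0.05 was 1.08, lower in regions with more tags, and the intervals cover counting error only.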

Other observations

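The families of this paragraph were looked up after the values had been seen, so their counts are a description. The Dpr proteins and their binding partners, the DIP proteins, are immunoglobulin proteins of the neuron surface that pair in specific combinations at synapses. Of the 11 DIP genes 7 were in compact regions, beside 3.05% of all protein-coding genes and 17.1% of those of 20 kb or longer. The IPC list as a whole held the same 7, and since it names each gene once these could not be in a broad region as well. In the chico list there were 4 of the 11. The 7 in compact regions were listed under older names: CG31814 (DIP-kappa, 1104 ChIP tags against 1053, enrichment 1.05), CG42343 (DIP-beta, 1.03), CG31708 (DIP-zeta, 1.03), CG34391 (DIP-delta, 1.03), CG14010 (DIP-eta, 1.01), CG31646 (DIP-theta, 1.01) and CG14521 (DIP-gamma, 1.01). The position at DIP-theta was 102 bp and that at DIP-zeta 983 bp inside the 5' end, and the other 5 were between 2081 and 26080 bp away. Every interval of these 7 regions included 1. Of the 21 Dpr genes 4 were in compact regions (dpr12, dpr, dpr3 and dpr6, with enrichments from 1.03 to 1.09), 8 in the IPC list as a whole and 5 in the chico list, and no gene of the 4 was in the chico list. The DIP genes were long, with 7 of 11 at 20 kb or more, and the part of length in the count was not tested.

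Receptors of neuropeptides formed another group. Of 38 such genes 7 were in compact regions (18.4%), beside 3.05% of all protein-coding genes and 17.1% of those of 20 kb or longer. Of the 38 genes 28.9% had 20 kb or more, and the part of length in the count was not tested. In the IPC list there were 11 and in the chico list 15, and 5 of the 7 were in the chico list too. The enrichments of these 7 were between 1.01 and 1.04, none with an unadjusted p under 0.05 by the exact binomial test. The sex peptide receptor gene SPR was highest, with 1392 ChIP tags against 1337 (1.04, interval 0.965 to 1.12) at 41060 bp into the gene. AlCR2 (now AstC-R2) and star1 (now AstC-R1), the pair of allatostatin C receptor genes, had 1.03 and 1.01, and the receptor genes pdfr, CG12370, NPFR76F and GRHRII described above were the others. No position was within 1 kb of the 5' end of its receptor gene.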
